A study of Mus musculus with 6 samples.

Results

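Thrombospondins are a family of secreted glycoproteins that sit in the extracellular matrix and on cell surfaces. They belong to the matricellular proteins, which tune how cells attach to, build and break down matrix rather than bearing load themselves. The 5 mammalian genes, Thbs1, Thbs2, Thbs3, Thbs4 and Comp, were taken by symbol from the deposited table, and all 5 of 5 were among its 12969 genes. The family was chosen by symbol, but it was put forward with the Irf3KO and WT values of these same libraries known, so its members count as selected on that difference and it is given as a description. Thbs1 and Thbs2 proteins assemble as trimers and carry type 1 repeats, the modules that bind CD36 and restrain blood vessel growth. Thbs3, Thbs4 and COMP proteins assemble as pentamers and lack those repeats. In heart muscle, thrombospondins are known from mouse studies to shape the scar after infarction and the response to pressure load.

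RNA of infarct tissue was sequenced from 3 Irf3KO mice (IRF3-/-, strain not stated in the labels) and 3 WT mice (C57BL/6). All were males about 12 weeks old whose left anterior descending coronary artery had been tied off permanently, and tissue was taken on day 4. Irf3 encodes a transcription factor that turns on interferon and antiviral genes, and the comparison asks what the healing infarct expresses without it. The labels say nothing further about the animals, so a p-value here reflects only how much these 6 samples vary. Values are RPKM, that is reads scaled to gene length and to library depth, which allows levels of different genes to be compared within a library.

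The libraries held 14.8 to 61.9 M reads in genes in Irf3KO and 15.7 to 20.8 M in WT, as read from the steps between low RPKM values. Irf3 itself stood at 7.4, 8.74 and 7.68 RPKM in Irf3KO, against 13.76, 13.87 and 11.56 RPKM in WT, so transcript was still read in the libraries labelled Irf3KO, and the labels do not say which part of the gene was deleted. Irf3KO replicate 2 stood apart, with a mean correlation of 0.907 with the other libraries against 0.941 to 0.966 for those, and results that rest on it are also given without it. In bulk tissue, fewer cells of a type and less RNA per cell cannot be told apart. Fibroblast markers, all 15 of 15 held, summed to 3955 to 5365 RPKM in Irf3KO and 5688 to 6744 RPKM in WT. Cardiomyocyte markers (12 of 12) summed to 16865 to 25589.6 RPKM in Irf3KO and 7818 to 21653 RPKM in WT. Both defining cell types of infarcted heart were thus present in every library. None of the 72 held markers of 9 cell types was listed at 0, but markers missing from the deposited values could not be counted. Of 10 platelet markers 2 were held, and of 8 lymphocyte markers 1.

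The promoter windows of Thbs4 and Thbs3 are shown because these genes had the largest differences in the family, and that of Ifit1 because its profile over the libraries came closest to that of Thbs4. Each runs from 250 bases before to 50 after the RefSeq start site in GRCm38.p6, and capitals mark matches to the motifs searched on both strands. Thbs4 lies at chr13:92794769-92795068, minus strand. Thbs3 lies at chr3:89214930-89215229, plus strand. Ifit1 lies at chr19:34640639-34640938, plus strand.
Thbs4: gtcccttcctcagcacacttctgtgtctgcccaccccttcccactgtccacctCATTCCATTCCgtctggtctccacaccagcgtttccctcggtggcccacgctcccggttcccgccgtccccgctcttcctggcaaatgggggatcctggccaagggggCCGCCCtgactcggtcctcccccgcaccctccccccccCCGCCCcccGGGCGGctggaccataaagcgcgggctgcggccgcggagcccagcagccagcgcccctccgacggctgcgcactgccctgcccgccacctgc
Thbs3: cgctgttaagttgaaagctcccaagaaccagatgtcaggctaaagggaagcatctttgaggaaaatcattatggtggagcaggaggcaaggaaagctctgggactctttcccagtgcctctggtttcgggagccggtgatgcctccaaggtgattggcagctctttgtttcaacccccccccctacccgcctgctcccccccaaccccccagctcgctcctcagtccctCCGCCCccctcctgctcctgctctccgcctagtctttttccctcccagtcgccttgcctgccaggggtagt
Ifit1: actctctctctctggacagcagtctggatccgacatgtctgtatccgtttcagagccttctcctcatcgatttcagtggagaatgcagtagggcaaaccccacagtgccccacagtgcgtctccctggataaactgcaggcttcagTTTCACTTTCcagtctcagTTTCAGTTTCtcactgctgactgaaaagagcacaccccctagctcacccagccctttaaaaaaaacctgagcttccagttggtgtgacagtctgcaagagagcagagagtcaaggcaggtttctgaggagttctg
The motifs were the core of the interferon-stimulated response element (GAAA and again GAAA with 2 free bases between), the TATA box TATAAA, the GC box GGGCGG, the AP-1 site TGANTCA and the TEAD site GGAATG. They are held by 3.44%, 13.6%, 35.7%, 7.81% and 14.7% of all 32851 windows of this length. The Ifit1 window held the interferon element at bases 147 to 156 and again at bases 166 to 175. The Thbs4 window held no match to it and had GC boxes at bases 162 to 167, 200 to 205 and 209 to 214 and overlapping TEAD letters at bases 54 to 59 and 59 to 64, in a sequence of 72.0% G and C. The Thbs3 window held 1 match, a GC box at bases 230 to 235. Of the family, 3 of 5 genes have a window in the table used, the remaining one being Thbs2 on chromosome 17, whose match was a TATA box on the reverse strand at bases 125 to 130. A match is a run of letters and does not show that a factor binds, and the absence of one speaks only for this window.

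Thbs4 fell in Irf3KO infarcts. It encodes a pentameric thrombospondin of tendon and muscle that rises in stressed heart and, in mice, protects the myocardium under load. Thbs4 stood at 6.17, 6.34 and 9.68 RPKM in Irf3KO libraries, against 24.63, 55.65 and 64.35 RPKM in WT libraries. Every Irf3KO library lay below every WT library, and the WT values spread more widely, replicate 1 being the lowest of them. The means were 7.40 ± 1.98 RPKM in Irf3KO and 48.2 ± 20.9 RPKM in WT (SD, n = 3 each), a ratio of 0.153. On the log2(RPKM + 1) scale the difference was -2.47 ± 0.36 (SE), which ranked 11 of the 12913 genes tested counting from the lowest, and limma's adjusted p over all genes was 0.0306. It was the only one of the 5 members called (0.356% of all genes tested were called as lower and 0.147% as higher). The call rested on the full set of libraries: the adjusted p was 0.0573, 0.0669 and 0.0592 without Irf3KO replicates 1, 2 and 3, and 0.128 and 0.176 without WT replicates 2 and 3, while without WT replicate 1 it was 0.0148 and the difference -2.88.

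Cardiomyocyte markers were in the same order as Thbs4 among the WT libraries, summing to 7818, 14937 and 21653 RPKM in WT replicates 1 to 3. The Irf3KO libraries had 16865, 25589.6 and 19433 RPKM of these markers in replicates 1 to 3, more in each than in WT replicate 2, and their Thbs4 values lay below that of WT replicate 1. The part of these cells in the Thbs4 values was not tested.

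Thbs3 stood lower in every Irf3KO library than in any WT library but was not called. It encodes a pentameric thrombospondin that in mice bears on bone growth. Thbs3 stood at 5.69, 2.98 and 4.95 RPKM in Irf3KO libraries, against 11.48, 13.24 and 14.3 RPKM in WT libraries. The groups did not overlap, and the gap between them was wider than the range within either. The means were 4.54 ± 1.40 RPKM in Irf3KO and 13.0 ± 1.42 RPKM in WT (SD, n = 3 each), a ratio of 0.349. The difference of -1.37 ± 0.24 on the log2 scale ranked 86 of 12913 from the lowest and did not pass over all genes (limma adjusted p = 0.0707). Irf3KO replicate 2 was the lowest library, and without it the difference was smaller, -1.15 ± 0.15, and passed (limma adjusted p = 0.0219). It also passed when libraries were rescaled by median-of-ratios factors (difference -1.26, limma adjusted p = 0.0387) and after quantile normalization (-1.24, 0.0203). It did not pass without Irf3KO replicates 1 and 3 (limma adjusted p = 0.0573 and 0.187) or without WT replicates 1, 2 and 3 (0.205, 0.312 and 0.323). Mtx1, a mitochondrial import gene just upstream of Thbs3, picked for its position, stood at 8.75, 9.19 and 8.6 RPKM in Irf3KO and 9.18, 8.09 and 7.49 RPKM in WT, values that overlap. Of the 36-base words of the longest coding Thbs3 transcript, 5.58% also occur in Mtx1 transcripts, and Thbs3 overlaps another annotated gene. A part of its reads may thus have been assigned either way or left out, since the counting settings are not stated.

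Thbs2 and Thbs1, the trimeric members, were the most abundant. Thbs2 encodes a protein that guides collagen fibril assembly and clears matrix metalloproteinase 2 from the cell surroundings. Thbs2 stood at 65.19, 37.13 and 56.21 RPKM in Irf3KO libraries, against 73.74, 119.68 and 80.05 RPKM in WT libraries. The groups did not overlap, though the highest Irf3KO library came close to the lowest WT library. The means were 52.8 ± 14.3 RPKM in Irf3KO and 91.2 ± 24.9 RPKM in WT (SD, n = 3 each), a ratio of 0.580. The difference of -0.78 ± 0.28 on the log2 scale ranked 490 from the lowest and did not pass over all genes (limma adjusted p = 0.556). Without Irf3KO replicate 2, the lowest library, it was -0.55 ± 0.24 (limma adjusted p = 0.665).

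Thbs1 encodes the thrombospondin stored in platelet granules and made by many injured tissues, which activates latent TGF-beta and signals through CD36 and CD47. It stood at 98.98, 58.06 and 111.4 RPKM in Irf3KO libraries, against 175.88, 160.25 and 104.31 RPKM in WT libraries. The groups overlapped, since WT replicate 3 lay below Irf3KO replicate 3. The means were 89.5 ± 27.9 RPKM in Irf3KO and 147 ± 37.6 RPKM in WT (SD, n = 3 each), a ratio of 0.609. The difference of -0.73 ± 0.32 on the log2 scale did not pass (limma adjusted p = 0.556), and without Irf3KO replicate 2 it was -0.44 ± 0.26 (limma adjusted p = 0.769). Of the 10 platelet markers 2 were held, Pf4 and Ppbp. They summed to 252.1, 199.4 and 197.1 RPKM in Irf3KO replicates 1 to 3. In WT replicates 1 to 3 they summed to 307.2, 109.0 and 119 RPKM. Over all libraries Pf4 stood at 105.4 to 297.67 RPKM and Ppbp at 3.56 to 11.33 RPKM, so the sum rests on Pf4. WT replicate 1 was highest for these markers and for Thbs1, and the other libraries were not in the same order. The part of platelets in the Thbs1 values was not tested. Of the 36-base words of its longest coding transcript, 2.10% also occur in a predicted gene, Gm29233.

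Comp encodes cartilage oligomeric matrix protein, which binds collagens in cartilage and tendon and appears in fibrotic tissue. It stood at 6.02, 18.72 and 8.8 RPKM in Irf3KO libraries, against 16.78, 20.75 and 12.46 RPKM in WT libraries. The groups overlapped through 1 library, Irf3KO replicate 2, which was the highest of its group for Comp and the lowest for Thbs1, Thbs2 and Thbs3. The means were 11.2 ± 6.68 RPKM in Irf3KO and 16.7 ± 4.15 RPKM in WT (SD, n = 3 each). The difference of -0.65 ± 0.37 on the log2 scale did not pass (limma adjusted p = 0.556), and without Irf3KO replicate 2 it was -1.06 ± 0.24 (limma adjusted p = 0.191). Comp overlaps another annotated gene, and how reads in the overlap were counted could not be told here. Scx, a tendon transcription factor picked after its values were seen, was likewise highest in that library, at 22.39 RPKM, against 7.14 to 11.14 RPKM in the other 5. Other cartilage and tendon genes went the other way: Acan, Cilp, Col11a1, Col12a1, Col14a1, Matn2, Prg4 and Sox9 were each lowest in that library. Col9a2 and Fmod were neither highest nor lowest in it.

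**Figure D1:**
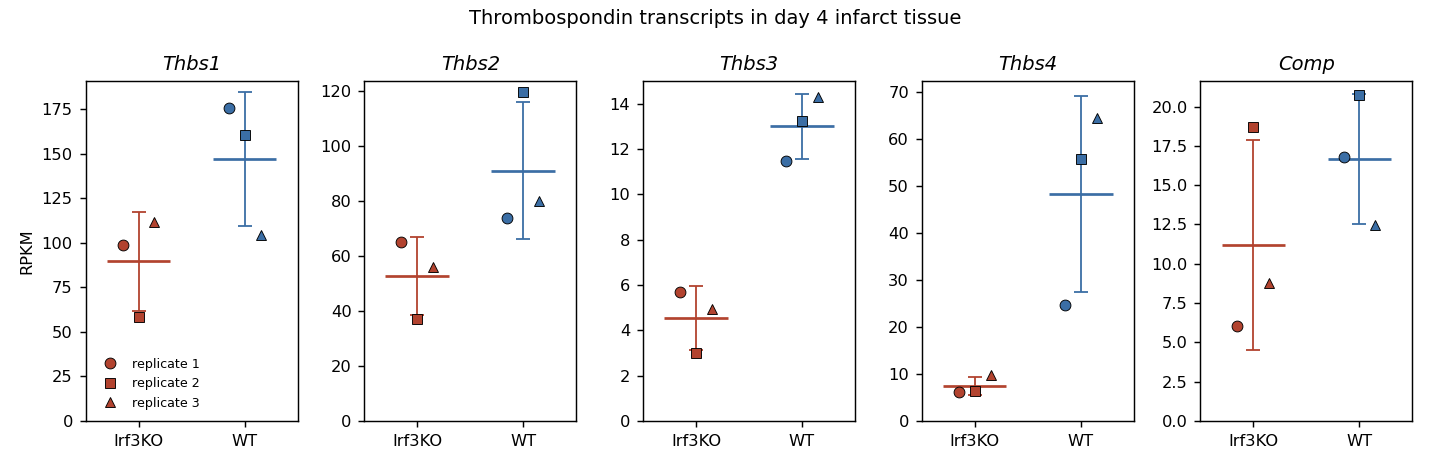
RPKM of the 5 thrombospondin genes in Irf3KO (left) and WT (right) libraries, each panel on its own axis from 0. Points are libraries with the shape giving the replicate number, and bars give the mean and SD of 3. Thbs2, Thbs3 and Thbs4 have no overlap between groups, with Thbs4 at 6.17 to 9.68 RPKM in Irf3KO and 24.63 to 64.35 RPKM in WT.

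All 5 members had a log2 fold change below 0, which 59.3% of all genes tested had, and their median was -0.78 beside -0.09 for all genes tested. In 3 of the 5 every Irf3KO library lay below every WT library, beside 11.8% of all genes tested. Since the members were chosen with these values known, the counts describe the family and are not evidence about it. Whether the members differed from each other in their change was not tested.

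**Figure D2:**
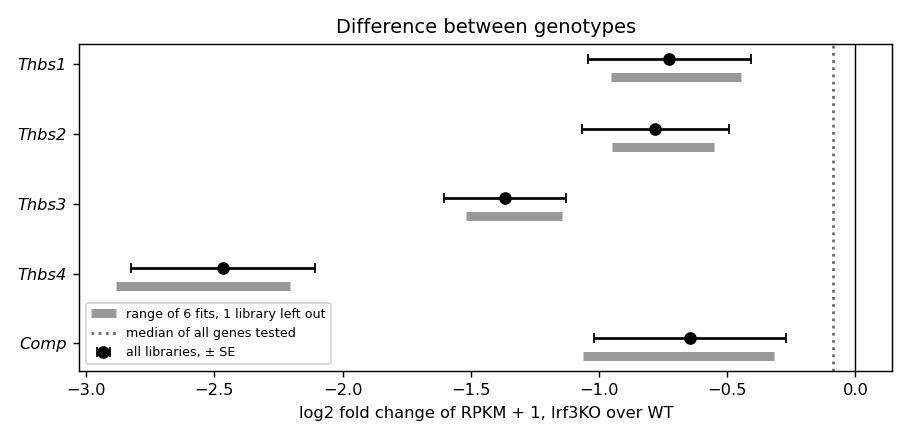
Difference between Irf3KO and WT in log2(RPKM + 1) for each member with all 6 libraries (points, with SE) and the range over 6 fits that each leave out 1 library (grey bars). The dotted line is the median of all genes tested, -0.09, and all grey bars lie below 0, from -2.88 to -2.21 for Thbs4 and from -1.06 to -0.32 for Comp.

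From high to low, the order of levels was Thbs1, Thbs2, Thbs4, Comp and Thbs3 in 4 of 6 libraries, the exceptions being Irf3KO replicate 2, where Comp was above Thbs4, and WT replicate 3, where Thbs3 was above Comp. Thbs1 was above Thbs2 in 6 of 6 libraries, and Thbs2 was above each pentameric member in 6 of 6. The Thbs1 to Thbs2 ratio was 1.69 ± 0.26 in Irf3KO and 1.68 ± 0.61 in WT (SD, n = 3 each), with overlapping ranges. Thbs4 was above Comp in 3 of 3 WT libraries and in 2 of 3 Irf3KO libraries, barely so in those 2, with 6.17 RPKM beside 6.02 and 9.68 beside 8.8, and stood at 0.339 of it in Irf3KO replicate 2. The ratio in WT was 1.47, 2.68 and 5.16. Thbs3 was the lowest member on average in both groups. Comp exceeded it in 5 of 6 libraries and Thbs4 exceeded it in 6 of 6, so Comp and Thbs3 are not clearly ordered.

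The family summed to 182.1, 123.2 and 191.0 RPKM in Irf3KO and 302.5, 369.6 and 275.5 RPKM in WT, with no overlap. The pentameric members summed to 17.88, 28.04 and 23.43 RPKM in Irf3KO and 52.9, 89.6 and 91.1 RPKM in WT. Thbs4 made up 4.53% ± 0.99 of the family's RPKM in Irf3KO and 15.5% ± 7.62 in WT, and Thbs3 made up 2.71% ± 0.37 in Irf3KO and 4.19% ± 0.87 in WT (SD, n = 3 each). Thbs1 made up 53.3% ± 5.68 in Irf3KO and 46.5% ± 10.5 in WT, which overlapped. Comp took 15.2% of the family in Irf3KO replicate 2 and 3.31% to 5.61% in the other libraries.

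**Figure D3:**
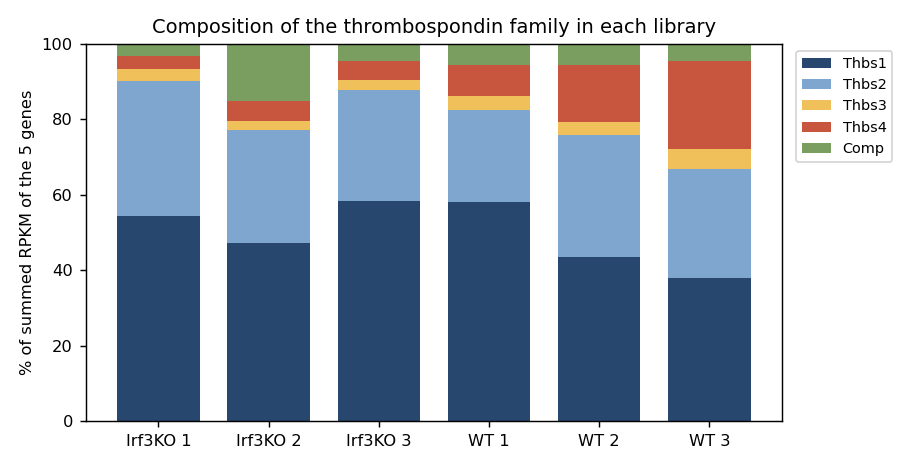
Share of the summed RPKM of the 5 genes taken by each in the 3 Irf3KO libraries (left) and the 3 WT libraries (right). Thbs4 takes 3.39% to 5.14% in Irf3KO and 8.14% to 23.4% in WT, and Comp takes 15.2% in Irf3KO replicate 2.

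The sums of the fibroblast markers did not overlap between groups. None of the 15 markers was called by limma. An unadjusted limma p under 0.05 was found for 2, both lower in Irf3KO (beside 5.96% of all genes tested). In 5 of 15 every Irf3KO library lay below every WT library, beside 11.8% of all genes tested. Of the 15 markers, 14 had a log2 fold change below 0 (beside 59.3% of all genes tested). Their median was -0.45, beside -0.09 for all genes tested. The exception was Lum, the collagen-binding proteoglycan lumican. It stood at 251.68, 217.35 and 206.08 RPKM in Irf3KO and 182.09, 206.59 and 233.32 RPKM in WT, values that overlap. Each member was set against the median log2(RPKM + 1) of the 15 fibroblast markers in the same library. On that scale Thbs4 lay at -3.76, -2.99 and -3.45 in Irf3KO and at -2.52, -1.62 and -0.87 in WT. Thbs3 lay at -3.86, -3.87 and -4.30 in Irf3KO and at -3.55, -3.61 and -2.96 in WT. For both, every Irf3KO library remained below every WT library, with differences of means of -1.73 for Thbs4 and -0.63 for Thbs3. For Thbs1, Thbs2 and Comp the groups overlapped, with differences of 0.01, -0.05 and 0.09. These are descriptions of 6 libraries. The share of all genes without overlap on this scale was not counted, so the lack of overlap is not evidence about Thbs4 and Thbs3. With the mean of the markers in place of their median the 5 differences were lower by the same amount, -2.05 for Thbs4, -0.95 for Thbs3, -0.30 for Thbs1, -0.36 for Thbs2 and -0.23 for Comp, so that those of Thbs1 and Comp changed sign.

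Markers of other cell types were summed in the same way. Macrophage markers (11 of 12 held) summed to 2220 to 5776 RPKM in Irf3KO and 3385 to 6179 RPKM in WT. Without Irf3KO replicate 2 the Irf3KO sums were 5776 and 4639 RPKM, both above WT replicates 2 and 3. Of these sums Lyz2 alone held 3825.58 and 2858.51 RPKM, against 1772.2 and 1821.52 RPKM in WT replicates 2 and 3. With all libraries, 10 of the 11 macrophage markers had a log2 fold change below 0 (beside 59.3% of all genes tested), with a median of -0.29. Endothelial markers (10 of 10) summed to 221.0 to 351 RPKM in Irf3KO and 271 to 389.6 RPKM in WT, the Irf3KO sums without replicate 2 being 351 and 342 RPKM. Smooth muscle and pericyte markers (8 of 8) summed to 629 to 780.1 RPKM in Irf3KO and 719.7 to 1135 RPKM in WT. Mesothelial markers (8 of 8) summed to 30.2 to 73.5 RPKM in Irf3KO and 52.8 to 185 RPKM in WT, the limits being set by Irf3KO replicate 2 (next lowest 45.6) and WT replicate 1 (next highest 110.3). Neutrophil markers (5 of 6) summed to 42.3 to 58.9 RPKM in Irf3KO and 35.2 to 95.1 RPKM in WT, where WT replicate 1 held the 95.1 and the other WT libraries 35.2 and 42.05 RPKM. Of 8 lymphocyte markers only Cd4 was held, at 0.69 to 0.93 RPKM in Irf3KO and 1.32 to 1.34 RPKM in WT. The part of these cell types in the thrombospondin values was not tested.

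For each member the 3 genes with the most similar profile were found among 11377 named genes, as the smallest root mean square difference between log2(RPKM + 1) profiles centred on their mean over the 6 libraries. For Thbs4 these were Ifit1, Oas2 and Usp18, interferon-stimulated genes that act in RNA binding, RNA sensing and removal of ISG15, at differences of 0.34, 0.38 and 0.40. Ifit1 stood at 3.44, 1.69 and 3.49 RPKM in Irf3KO and 16.23, 20.92 and 25.15 RPKM in WT. Like Thbs4, these genes were lowest of the WT libraries in replicate 1, and unlike it they were lowest of all in Irf3KO replicate 2. Reads of Ifit1 and Oas2 may be shared with family copies, which was not checked, so their values may be uncertain. The measure favours genes with as large a difference between groups, and few genes have one.

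The other members had closer matches among genes with smaller differences. Thbs3 was followed by Cd59a, a complement inhibitor, at a difference of 0.08, and by H2-T24, a class I-like histocompatibility gene whose reads may be shared with copies, and Ncoa4, which delivers ferritin for breakdown. Cd59a stood at 8.51, 4.98 and 6.88 RPKM in Irf3KO and 14.86, 19.52 and 21.25 RPKM in WT. Its promoter window held the interferon element letters at bases 64 to 73, as 3.44% of all windows do. Among the genes similar to a member, only the windows of Cd59a and Ifit1 were searched. Oas2 and Usp18 had no window, and the other similar genes were not looked up. Thbs1 was followed by Creld2, an ER chaperone induced by unfolded protein, Adamts4, an aggrecan-cleaving protease, and Slit2, a guidance ligand, each at 0.08. Thbs2 was followed by Zfp9, Dcbld2 and Adamts10, at 0.08 to 0.10. Comp was followed by Fgfrl1, Fstl3 and Ltbp2, at 0.16 to 0.28. Among the members themselves Thbs1 and Thbs2 were nearest each other, at 0.31, and Thbs4 and Comp were farthest apart, at 1.16.

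**Figure D4:**
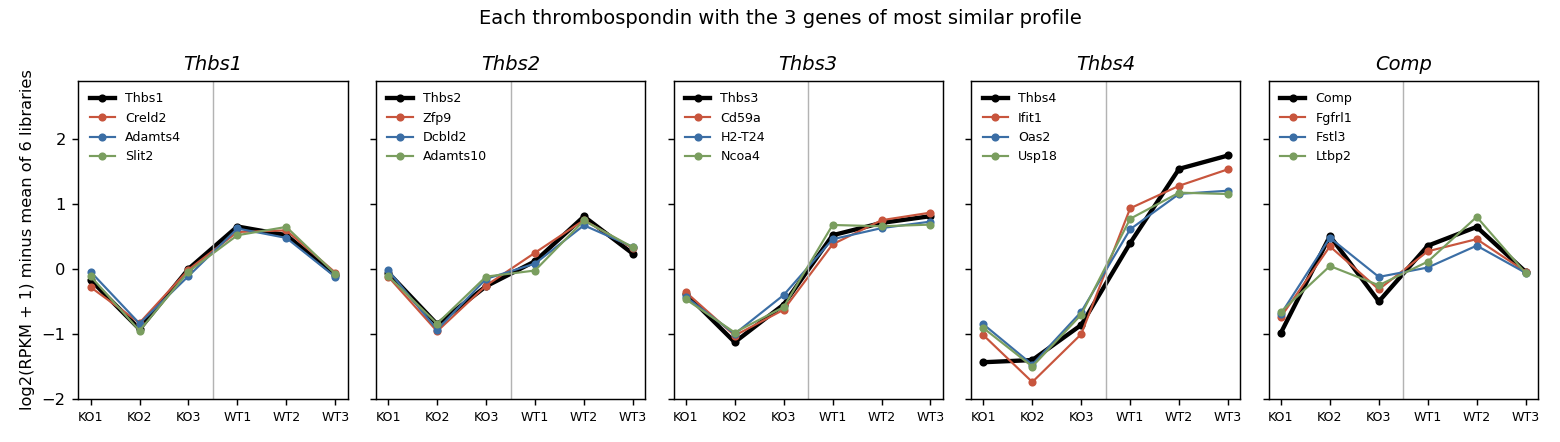
Profile of each thrombospondin (black) and of its 3 most similar genes over the Irf3KO (KO1 to KO3) and WT (WT1 to WT3) libraries, as log2(RPKM + 1) minus the mean of the 6 libraries. The Thbs4 panel shows Ifit1, Oas2 and Usp18 high in all WT libraries, and the Comp panel shows a profile high in Irf3KO replicate 2.

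Receptors and binding partners of thrombospondins had a median close to that of all genes. All 19 listed genes were tested, none was called in either direction (limma; 0 had an unadjusted p under 0.05), and their median log2 fold change was -0.16 beside -0.09 for all genes. The median was -0.01 without Irf3KO replicate 2 and 0.01 without WT replicate 1. Cd36, the scavenger receptor through which Thbs1 acts on endothelium, stood at 338, 283 and 245 RPKM in Irf3KO and 176, 207 and 249 RPKM in WT (difference 0.46 ± 0.26, limma adjusted p = 0.556). Itga6, the laminin receptor integrin alpha 6, stood at 22.9, 7.12 and 20.8 RPKM in Irf3KO and 32.9, 25.0 and 20.9 RPKM in WT (-0.73 ± 0.40, limma adjusted p = 0.556).

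Of 18 genes for TGF-beta ligands, latency proteins and response, none was called and 2 had an unadjusted limma p under 0.05, both lower in Irf3KO (beside 5.96% of all genes tested), and the median was -0.34, or -0.20 without Irf3KO replicate 2. Tgfb3, a ligand whose latent form is held in matrix, stood at 43.2, 30.6 and 45.8 RPKM in Irf3KO and 62.3, 84.1 and 67.5 RPKM in WT (-0.83 ± 0.23, limma adjusted p = 0.344). Ltbp1, which tethers latent TGF-beta, stood at 6.72, 4.36 and 7.34 RPKM in Irf3KO and 8.47, 9.86 and 9.64 RPKM in WT (-0.55 ± 0.22, limma adjusted p = 0.556). In both, the groups did not overlap.

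Of 18 other matricellular genes, none was called, 5 had an unadjusted limma p under 0.05, all of them lower in Irf3KO (beside 5.96% of all genes tested), and the median was -0.46, beside -0.09 for all genes. Cthrc1, made by activated fibroblasts, stood at 111, 90.4 and 92.6 RPKM in Irf3KO and 163, 231 and 151 RPKM in WT (-0.86 ± 0.24, limma adjusted p = 0.368). Wisp1, a CCN family protein of injured matrix, stood at 16.1, 7.95 and 13.2 RPKM in Irf3KO and 23.2, 27.8 and 20.0 RPKM in WT (-0.92 ± 0.27, limma adjusted p = 0.404). Spp1, osteopontin, picked after its values were seen, went the other way, at 2597, 1093 and 1545 RPKM in Irf3KO and 1635, 880.3 and 423 RPKM in WT, with overlap.

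Cartilage and tendon matrix genes, made where COMP and Thbs4 proteins are abundant, had the lowest median of the lists, -0.68 over 11 tested genes of 24 listed. None was called and 5 had an unadjusted limma p under 0.05, all lower in Irf3KO (beside 5.96% of all genes tested), and without Irf3KO replicate 2 the median was -0.42. Fmod, fibromodulin, which regulates collagen fibrils, stood at 6.24, 9.67 and 7.8 RPKM in Irf3KO and 17.3, 23.6 and 16.8 RPKM in WT (-1.19 ± 0.22, limma adjusted p = 0.0884). Without Irf3KO replicate 2 it was the 1 gene of the list that was called (-1.33 ± 0.19, limma adjusted p = 0.0334). Acan, the cartilage proteoglycan aggrecan, stood at 0.46, 0.24 and 0.55 RPKM in Irf3KO and 2.79, 4.09 and 1.19 RPKM in WT (-1.30 ± 0.30, limma adjusted p = 0.175). Cilp, a cartilage matrix protein also made by cardiac fibroblasts and picked after its values were seen, stood at 17.96, 17.68 and 30.03 RPKM in Irf3KO and 25.95, 81.21 and 94.04 RPKM in WT, with WT replicate 1 the lowest of its group as for Thbs4.

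Other genes that encode thrombospondin type 1 repeats had a median of -0.47 over 24 tested of 28 listed, none called and 8 with an unadjusted limma p under 0.05, all lower in Irf3KO (beside 5.96% of all genes tested). Adamts12, a metalloprotease that cleaves COMP, stood at 6.66, 1.8 and 6.41 RPKM in Irf3KO and 11.1, 15.3 and 10.1 RPKM in WT (-1.26 ± 0.39, limma adjusted p = 0.439). Spon1, spondin 1, stood at 4.22, 2.7 and 4.12 RPKM in Irf3KO and 6.99, 5.88 and 5.68 RPKM in WT (-0.63 ± 0.21, limma adjusted p = 0.488). Genes of ATF6 and ER folding, the pathway that Thbs4 protein engages in mouse heart, had a median of -0.51 over 18 tested, none called and 3 with an unadjusted limma p under 0.05, all lower in Irf3KO (beside 5.96% of all genes tested). Ddit3, a stress transcription factor, stood at 5.88, 3.49 and 7.59 RPKM in Irf3KO and 8.38, 10.2 and 11.6 RPKM in WT (-0.77 ± 0.27, limma adjusted p = 0.520). Creld2 stood at 22.2, 14.8 and 27.0 RPKM in Irf3KO and 40.9, 41.6 and 26.1 RPKM in WT (-0.74 ± 0.28, limma adjusted p = 0.556). The ER list was lowest in Irf3KO replicate 2, and without that library its median was -0.20.

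**Figure D5:**
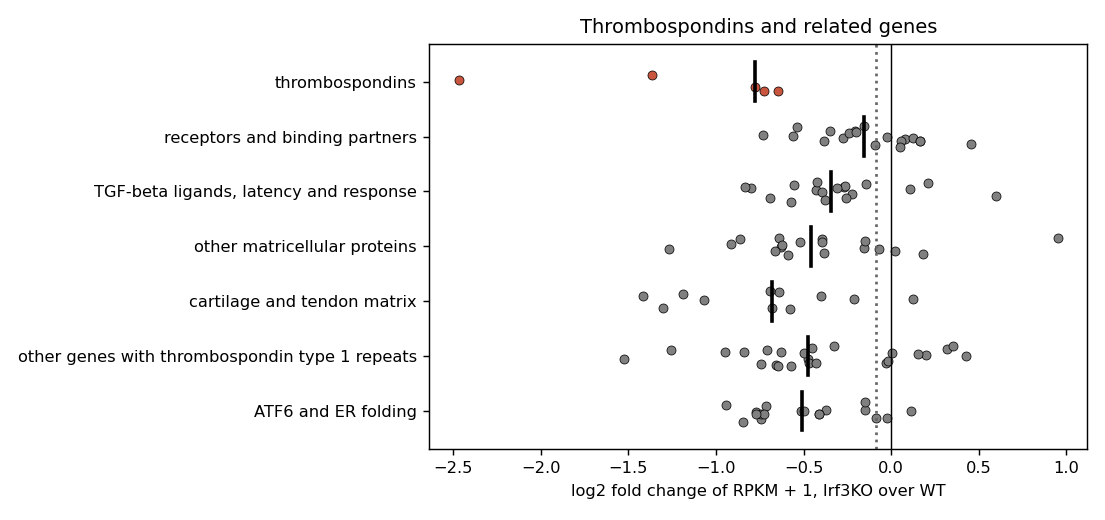
Difference between Irf3KO and WT in log2(RPKM + 1) of the thrombospondins (top, red) and of 6 lists of related genes (grey), 1 point per gene, with the list median as a bar and the median of all genes tested, -0.09, as a dotted line. Receptors and binding partners centre at -0.16 and cartilage and tendon matrix genes at -0.68.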

How the data were processed

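The RPKM values of 6 libraries were used as the authors deposited them, to 2 decimals and with gene lengths. STAR 2.3.0, HTSeq 0.6.0, edgeR 3.8.6, SAMtools 0.1.18.0 and Picard 1.100 are named in the submitters' processing notes, as is the build NCBIM37 (mm9). Their settings and the use of strand are not stated there. In 5 lines a gene name split into the first value was repaired. Depth was read from low RPKM values times gene length, which lie 1 read apart (100% within 0.2 reads of a whole number). About 216 to 41885 reads lay behind a member's value, the lowest with a 95% Poisson interval of 188 to 247, which covers counting error only.

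The 12913 genes whose mean over the libraries reached 1 RPKM were fitted on log2(RPKM + 1), Irf3KO over WT, by lmFit and eBayes with a trend (limma 3.58.1, R 4.3.3, two-sided), adjusted by Benjamini-Hochberg over all of them at 0.05. This scale understates changes of low genes. Simulated data with known changes were used to test the fit. With 3 against 3 an exact permutation test cannot go below p = 0.1.

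The members and lists were chosen with earlier results of these data known. Genes were named by rule: the members, Irf3, the 2 genes of smallest p in each list and the 3 most similar genes of each member. Mtx1 (by position), Lum (as the exception among the fibroblast markers) and Scx, Spp1 and Cilp (after their values were seen) were named outside it. Alternatives were other pseudocounts, filters, scalings, variance models, library weights, a replicate block and leaving out each library. Promoter windows came from RefSeq (GRCm38.p6) and 36-base words from GENCODE M21 transcripts.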

Additional observations from a re-analysis of the deposited data

How the results depend on the processing

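All 15 alternatives gave each of the 5 members a difference below 0, and the calls depended on the setting. Thbs4 was called in 10 of the 15, Thbs3 in 5, and Thbs1, Thbs2 and Comp in 1 each. Each alternative that kept all 6 libraries called Thbs4, and the calls it lost were in fits without 1 library. Leaving out 1 library at a time gave -0.95 to -0.44 for Thbs1, -0.95 to -0.55 for Thbs2, -1.52 to -1.15 for Thbs3, -2.88 to -2.21 for Thbs4 and -1.06 to -0.32 for Comp. Over these 6 fits Thbs4 was called in 1 (limma adjusted p 0.0148 to 0.176) and Thbs3 in 1, and the genes called over the whole table numbered 15 to 70 lower and 6 to 27 higher, against 46 and 19 with all libraries. Thbs3 was also called with median-of-ratios factors (-1.26) and quantile normalization (-1.24); these scalings moved the median of all genes from -0.09 to 0.02 and 0.01. Quantile normalization called 75 lower and 29 higher genes, and a minimum mean of 5 RPKM called 22 and 12. The cause was not tested. Library quality weights estimated gene by gene, added after seeing the data because the REML estimate stopped before convergence, called all 5 members (-0.47 for Thbs1, -0.92 for Thbs2, -1.25 for Thbs3, -2.44 for Thbs4, -1.08 for Comp) and 1751 lower and 1209 higher genes, with weights of 0.103 for Irf3KO replicate 2 and 6.36 for Irf3KO replicate 3. The labels do not say that a replicate number is shared between genotypes, so the libraries were not paired. Same-numbered libraries deviated with correlations of 0.13, -0.10 and -0.10, and differently numbered ones with -0.21 to 0.19. So few correlations cannot show whether a pairing exists. With a replicate block Thbs3 stayed at -1.37 and was called (limma adjusted p = 0.00569), as was Thbs4, and 187 lower and 63 higher genes were called. The SE of Thbs3 was larger with the block, 0.29 against 0.24, so its lower adjusted p did not come from a more precise estimate. Against the mean of the fibroblast markers, the differences of Thbs1 and Comp were -0.30 and -0.23, against 0.01 and 0.09 with the median. Thbs1 made up 62.6% of Thbs1 and Thbs2 together in Irf3KO and 61.4% in WT.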
